A study of Mus musculus with 15 samples.

Results

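Rxfp1, Pgr and Greb1 were looked at as 3 oestrogen-responsive genes in the mouse pituitary. They were found by symbol in a table of 55523 gene rows, where each had 1 row. They were chosen by their measured values in the same 4 groups that are described here. Their levels and fold changes are therefore a description and carry no test.

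Whole pituitary glands were profiled by RNA-seq in 15 libraries. The mice lacked 1 or both copies of an enhancer in intron 6 of Nr5a1, termed the pituitary enhancer (PE), which had been cut out with Cas9 in fertilised eggs. Nr5a1 encodes the nuclear receptor NR5A1, also called Ad4BP/SF-1. Each sex had 4 PE+/- libraries, and there were 4 PE-/- libraries from males and 3 from females. The PE+/- mice, which also lack 1 copy of the enhancer, were the controls, so no group had both copies intact. The labels give no age, oestrous stage, hormone level or oestrogen treatment for these libraries, and the name "oestrogen-responsive" comes from general knowledge of the genes, not from a response measured here. In whole glands, fewer cells of a type and less RNA per cell cannot be told apart.

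Oestrogens made by the ovary reach the pituitary and act on lactotropes, which secrete prolactin, and on gonadotropes, which secrete the gonadotropins, through the nuclear receptor ERα. A bound receptor attaches to oestrogen response elements in DNA and changes the transcription of nearby genes. Rxfp1 is the G protein-coupled receptor for relaxin, Pgr is the nuclear receptor for progesterone, and Greb1 is an early oestrogen target whose protein binds ERα as a cofactor. Gonadotropes are the pituitary cells that make NR5A1, and the gonadotropins they release drive steroid production in the ovary and testis.

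Library totals ran from 12982794 to 30238443 estimated counts, and about 4 counts stood for 1 sequenced fragment. Levels are given as CPM, the counts of a gene relative to the size of its library after scaling by trimmed mean of M-values (TMM) factors. The floor was set at 3 fragments, or 12 counts, in a library. Nr5a1, the targeted gene, was at 33.7 to 80.1 CPM in the 8 PE+/- libraries and at 0 to 0.896 CPM in the 7 PE-/- libraries, which matched the labels in every library. No library lay far from its group over all genes. The root mean square difference of log2 CPM from a library to the others of its group ran from 1.08 to 1.31.

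In the mm10 genome (GENCODE M21 annotation) Rxfp1 lies on chromosome 3, 79641611 to 79737880, minus strand, and its coding transcript has 18 exons. Pgr lies on chromosome 9, 8899833 to 8968611, plus strand, with 8 exons in its longest coding transcript. Greb1 lies on chromosome 12, 16670615 to 16800886, minus strand, with 35 exons in its longest coding transcript. In the files these are rows MSTRG.15267, MSTRG.24948 and MSTRG.5108. The counts cover whole genes, so introns, exons and untranslated regions are not told apart.

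The promoters are shown because binding of ERα near the start is 1 of the routes by which oestrogen acts on a gene. The table of RefSeq promoters (GRCm38.p6) had 1 entry for Pgr and 2 for Greb1, and Rxfp1 had none. The 250 bases before each start are printed 5′ to 3′ on the gene's strand, with matches to the 5-base arm of an oestrogen response element, GGTCA or its reverse TGACC, in capitals. They are Pgr, chr9:8899583-8899832, plus strand, Greb1 at its upstream start, chr12:16800887-16801136, minus strand, and Greb1 at its downstream start, chr12:16757240-16757489, minus strand.
Pgr: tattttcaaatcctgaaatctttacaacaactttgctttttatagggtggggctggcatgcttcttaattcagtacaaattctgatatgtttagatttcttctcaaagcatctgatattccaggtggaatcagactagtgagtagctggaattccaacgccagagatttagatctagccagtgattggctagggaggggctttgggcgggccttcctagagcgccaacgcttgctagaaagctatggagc
Greb1, upstream start: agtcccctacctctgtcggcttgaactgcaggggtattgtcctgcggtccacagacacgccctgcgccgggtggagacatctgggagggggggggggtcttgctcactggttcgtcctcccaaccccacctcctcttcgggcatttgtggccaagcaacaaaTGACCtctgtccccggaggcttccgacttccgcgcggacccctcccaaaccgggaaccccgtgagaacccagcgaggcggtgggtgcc
Greb1, downstream start: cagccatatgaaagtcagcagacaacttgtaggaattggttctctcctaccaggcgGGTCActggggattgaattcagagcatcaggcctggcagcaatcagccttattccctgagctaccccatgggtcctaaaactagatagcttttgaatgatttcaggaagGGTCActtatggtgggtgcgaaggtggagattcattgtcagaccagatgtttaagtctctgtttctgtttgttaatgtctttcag

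The Pgr window held 0 arms, the upstream Greb1 window held 1 at 88 bases before the start, and the downstream Greb1 window held 2, at 194 and 85 bases before the start. Of 32851 mouse promoters of the same length, 35.2% held at least 1 arm and 8.16% at least 2 on either strand. The full element GGTCANNNTGACC, in which both arms are 3 bases apart, was in none of the 3 windows and in 0.0639% of all promoters. The NR5A1 site TCAAGGTCA, which contains the arm, was searched on both strands and was in none of the 3 windows and in 0.387% of all promoters. The counts do not say which Greb1 start was used.

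Rxfp1 was found almost only in PE+/- females. Its level was 19.1, 29.2, 35.4 and 42.3 CPM in the PE+/- females (244, 698, 651 and 694 counts) and 0 in all 3 PE-/- females. It was 0, 0.649, 1.65 and 0 CPM in the PE+/- males, which came from 14 and 27 counts in replicates 2 and 3, and 0 in all 4 PE-/- males. Every PE+/- female lay above every other library. The mean of the PE+/- females was 31.5 ± 9.87 CPM, against 0.574 ± 0.777 CPM for the PE+/- males (SD, n = 4 each).

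Set against the floor of 12 counts in each library, Rxfp1 was at least 57.7-fold lower in PE-/- than in PE+/- females. The bound ran from 49.8 to 70.3 when single libraries were left out. Between the sexes of the controls, the ratio of the means was 54.9, and the log2 fold change of females against males was 5.73 (SE 0.99). Without PE+/- male replicate 3, the male with 27 counts, it was 6.95. In males and in the comparison of PE-/- females with PE-/- males Rxfp1 did not pass the filter on low counts and no fold is given, since the groups were at or close to the floor.

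Pgr was present in every library and was highest in the PE+/- females. It was at 20.7, 25.0, 61.6 and 29.6 CPM in the PE+/- females, and at 8.33, 10.8 and 11.8 CPM in the PE-/- females. It was at 13.2, 5.24, 11.2 and 10.01 CPM in the PE+/- males, and at 11.2, 11.5, 8.94 and 13.2 CPM in the PE-/- males. The 4 PE+/- females lay above all 11 other libraries, and the other 3 groups overlapped one another.

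In females the mean of Pgr was 34.2 ± 18.6 CPM in PE+/- (SD, n = 4) and 10.3 ± 1.78 CPM in PE-/- (n = 3), 3.32-fold lower. The log2 fold change was -1.73 (SE 0.40) and -1.29 without PE+/- female replicate 3, the library with 61.6 CPM. In males the PE+/- mean was 9.91 ± 3.37 CPM and the PE-/- mean 11.2 ± 1.77 CPM (SD, n = 4 each). The log2 fold change was 0.18 (SE 0.28) and ran from -0.03 to 0.35 as single libraries were left out. Control females were above control males by 1.79 (SE 0.41) on the log2 scale. Among PE-/- mice the difference of females from males was -0.12 (SE 0.19). The interaction, the genotype difference in females minus that in males, was -1.91 (SE 0.50).

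Greb1 was lower in PE-/- than in PE+/- females, and it was also low in 3 of the 4 PE-/- males. It was at 19.2, 23.3, 65.7 and 18.8 CPM in the PE+/- females and at 0.679, 0.525 and 0.831 CPM in the PE-/- females (11, 17 and 19 counts). It was at 8.59, 8.34, 17.5 and 9.88 CPM in the PE+/- males. In the PE-/- males it was at 1.01, 0.383 and 0.281 CPM in replicates 1 to 3 (20, 10 and 6 counts) and at 11.2 CPM in replicate 4 (197 counts). The PE-/- females and the first 3 PE-/- males overlapped near the floor, and PE-/- male replicate 4 lay within the range of the PE+/- males.

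In females the mean of Greb1 was 31.8 ± 22.7 CPM in PE+/- (SD, n = 4) and 0.679 ± 0.153 CPM in PE-/- (n = 3), 46.8-fold lower, with a log2 fold change of -5.55 (SE 0.63). It was -4.93 without PE+/- female replicate 3. In males the PE+/- mean was 11.1 ± 4.33 CPM and the PE-/- mean 3.22 ± 5.33 CPM (SD, n = 4 each), and the log2 fold change was -1.80 (SE 1.06). Without PE-/- male replicate 4 the male value was -4.32, and the groups then did not overlap.

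Control females were above control males in Greb1 by 1.52 (SE 0.47) on the log2 scale, with a gap from 17.5 CPM in the highest male to 18.8 CPM in the lowest female, and by 0.89 without PE+/- female replicate 3. Among PE-/- mice the difference of females from males was -2.23 (SE 1.34), and it turned to 0.29 without PE-/- male replicate 4. The interaction was -3.75 (SE 1.39) and came to -1.23 without that male. The direction between the sexes of PE-/- mice thus rested on 1 library.

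**Figure D1:**
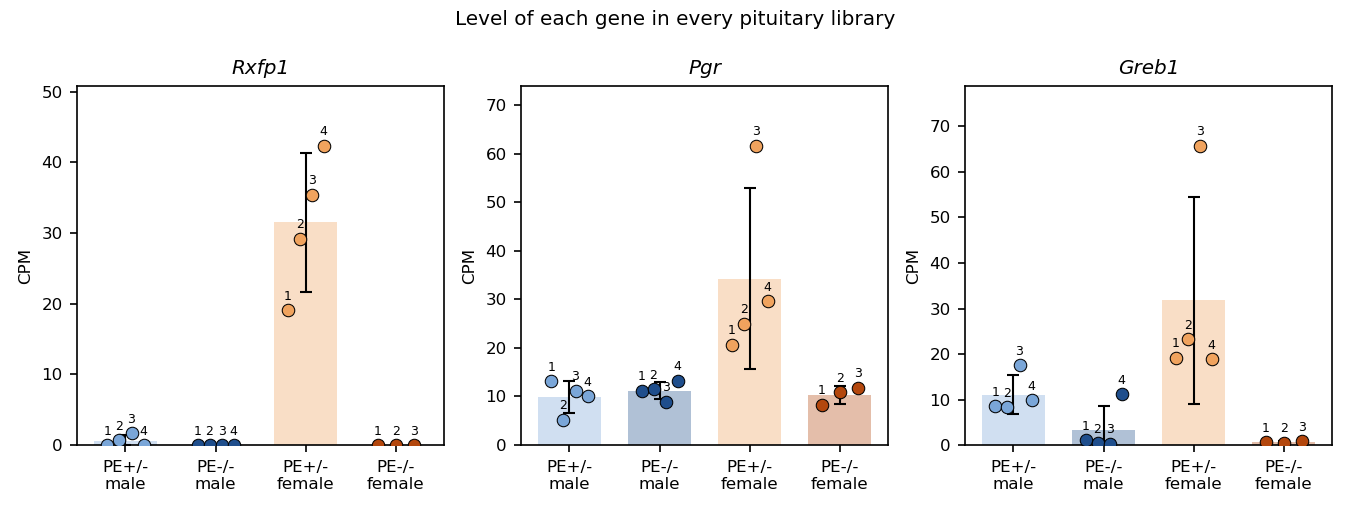
Level of Rxfp1, Pgr and Greb1 in CPM (linear axis from 0) in each of the 15 libraries, as points numbered by replicate, with bars at the group mean and error bars of 1 SD, cut at 0 (n = 4, and n = 3 for PE-/- females). PE+/- females lie highest for each gene, the PE-/- females are at 0 for Rxfp1, and PE-/- male replicate 4 stands at 11.2 CPM of Greb1 above the other PE-/- males.

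All 3 genes had separate groups in both comparisons that include PE+/- females, lower in PE-/- females and higher than in PE+/- males. Of all genes tested, 0.697% were called lower in PE-/- females (18085 tested) and 0.414% were called higher in control females than in control males (17163 tested), by edgeR's quasi-likelihood test at an adjusted p under 0.05. These are shares of calls, and groups can be separate without a call, as for Vip and Myc in females. The share of all genes whose groups do not overlap was not computed. The 3 genes were chosen on this pattern, so nothing is read from their count. Both comparisons use the same 4 PE+/- females. In the comparison of PE-/- with PE+/- males and in that of PE-/- females with PE-/- males, the groups overlapped for each of the 3 genes.

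The order of the levels differed among them. For Rxfp1 it ran from PE+/- females to PE+/- males, with both PE-/- groups at 0, and the PE+/- males overlapped them. Pgr had PE+/- females first and 3 groups with means between 9.91 and 11.2 CPM that did not differ beyond their spread. Greb1 ran from PE+/- females to PE+/- males, PE-/- males and PE-/- females. Its PE+/- and PE-/- males overlapped through PE-/- male replicate 4 alone, and both PE-/- groups overlapped near the floor.

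Single libraries stood high in more than 1 of the genes. PE+/- female replicate 3 was highest of its group in Pgr and Greb1 but not in Rxfp1. PE+/- male replicate 3 was highest in Rxfp1 and Greb1, and PE-/- male replicate 4 was highest in Greb1 and Pgr and at 0 for Rxfp1. PE-/- male replicate 4 also had the lowest Lhb (3.13 CPM) and Fshb (9.1 CPM), the gonadotropin beta subunits, of the PE-/- males, and the highest Prl. What set these libraries apart was not tested.

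On the receptor side of the pathway no gene passed the threshold. Esr1, which encodes ERα, ran from 375 to 458 CPM in PE+/- females and from 303 to 408 CPM in PE-/- females, while the PE+/- males spanned 312 to 588 CPM and the PE-/- males 222 to 387 CPM, and each pair of groups overlapped. Its log2 fold change was -0.24 (SE 0.15, edgeR adjusted p = 0.475) in females and -0.44 (SE 0.23, edgeR adjusted p = 0.902) in males. Esr2, which encodes ERβ, was at 0 to 1.03 CPM over all libraries. It was at 0 in all PE+/- females and at 0.306 to 0.834 CPM in the PE-/- females (7 to 27 counts), near the floor. In the males it was at 0 to 0.324 CPM in PE+/- and 0.253 to 1.03 CPM in PE-/-, which overlapped. Esr2 did not pass the filter on low counts within either sex, and no fold is given. Of the 11 receptors and coregulators listed, 10 were tested in females and 10 in males, and none passed the threshold, while 2 and 0 had an unadjusted p under 0.05. None of them passed in the comparisons between the sexes or in the interaction, where 1 of 10, 0 of 11 and 4 of 11 had an unadjusted p under 0.05 (control sexes, PE-/- sexes, interaction). Over all genes tested, an unadjusted p under 0.05 was held by 16.1% in females, 6.14% in males, 13.5% between the control sexes, 3.37% between the PE-/- sexes and 10.1% in the interaction, and each count at an unadjusted p is to be read against these shares.

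Of 31 other genes listed as oestrogen-induced, 29 had a row, and Ca12 and Wisp2 were not found by those symbols. The list also comes from general knowledge of the genes, not from a response measured in these pituitaries. Tff1 and Ltf were at 0 in every library. In females 24 genes could be tested. By edgeR's quasi-likelihood test, adjusted over all genes, 2 were lower and none higher in PE-/- than in PE+/-. Of all genes, 0.348% were called higher and 0.697% lower. The unadjusted p was under 0.05 for 8 of 24, against 16.1% of all genes. The median log2 fold change was -0.18, with 15 of 24 below 0, against 0.0018 over all genes tested, of which 49.8% were below 0. The members that passed were Gal and Prl. The count was 5 with DESeq2, which added Vip, Rerg and Myc, 3 genes named here after their values were seen, while DESeq2 called 7.91% of all genes. Rerg also passed with the 1 CPM filter and with counts divided by 4.

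Gal encodes galanin, a neuropeptide that lactotropes make under oestrogen. It was at 87.3, 758.4, 744.8 and 730.4 CPM in the PE+/- females and at 0.926, 1.98 and 2.41 CPM in the PE-/- females. The groups were far apart, with PE+/- female replicate 1 well below its 3 group mates. The log2 fold change was -8.34 (SE 0.98, edgeR adjusted p = 0.0207). Of the list genes, Rerg also passed without PE+/- female replicate 3. The call of Gal was lost without PE+/- female replicate 2 (-8.19, edgeR adjusted p = 0.0574) and without PE-/- female replicate 1, 2 or 3 (edgeR adjusted p = 0.0786, 0.0985 and 0.0955), while the fold stayed between -8.04 and -8.70.

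Prl, the prolactin gene, was at 34018, 29334, 21936 and 35085 CPM in the PE+/- females and at 5186, 4453 and 5598 CPM in the PE-/- females. The log2 fold change was -2.58 (SE 0.21, edgeR adjusted p = 0.00698). It remained past the threshold without each female library in turn. In the males both genes spread widely: Prl ran from 12277 to 31159 CPM in PE+/- and from 4748 to 41192 CPM in PE-/-, and Gal from 4.97 to 49.3 CPM and from 1.68 to 12.9 CPM. PE-/- male replicate 4 held the highest value of both among PE-/- males.

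**Figure D2:**
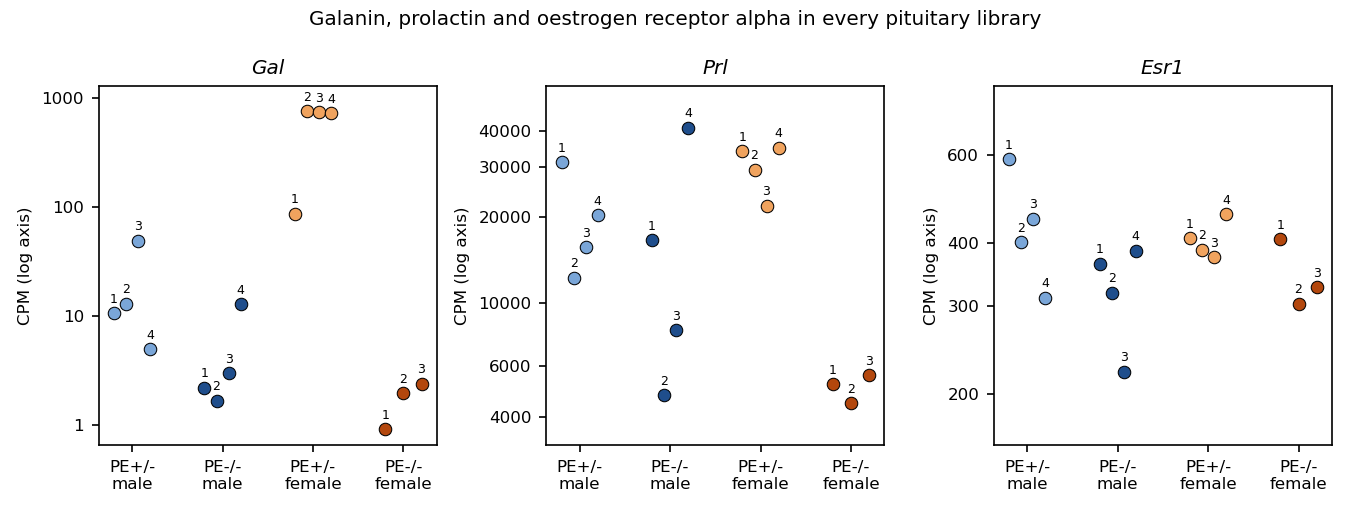
Gal, Prl and Esr1 in CPM (log axes, a different range in each panel) in each library, as points numbered by replicate. Gal and Prl are lower in the 3 PE-/- females than in the 4 PE+/- females, with Prl at 4453 to 5598 against 21936 to 35085 CPM, while the groups of Esr1 overlap.

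In males none of 22 tested genes of the oestrogen-induced list passed the threshold (3 at an unadjusted p under 0.05, against 6.14% of all genes). With DESeq2, which called 1.18% of all genes, Rerg passed. By the quasi-likelihood test 0.046% of all genes were called higher and 0.0862% lower in that comparison. On the log2 scale Gal differed by -1.99 in males (SE 0.87, edgeR adjusted p = 0.815), and Prl by -0.17 (SE 0.63, edgeR adjusted p = 0.99). The median of the list was -0.08, against 0.0027 over all genes.

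Between control females and control males, none of 23 tested genes of the list passed, with 4 at an unadjusted p under 0.05, against 13.5% of all genes. With DESeq2, which called 5.24% of all genes, 2 passed (Vip and Myc). Without PE+/- female replicate 1, the library low in Gal, 2 passed in edgeR (Gal and Myc). The shares called over all genes were 0.414% higher and 0.256% lower in females. The log2 fold change for Gal was 4.89 (SE 0.94, edgeR adjusted p = 0.072), with every control female above every control male. Between PE-/- females and PE-/- males none of 22 passed, with 3 at an unadjusted p under 0.05 (3.37% of all genes) and 1 with DESeq2 (Pttg1; 0.225% of all genes). There 0.0165% of all genes were called higher and 0.0329% lower. In the interaction none of 25 passed, with 5 at an unadjusted p under 0.05 (10.1% of all genes) and 0 with DESeq2 (2.04% of all genes). By the quasi-likelihood test 0.0467% of all genes were called higher and 0.114% lower. The interaction of Gal was -6.35 (SE 1.34, edgeR adjusted p = 0.0854) and that of Prl -2.40 (SE 0.76, edgeR adjusted p = 0.274), so their genotype differences were not shown to differ between the sexes. That of Gal passed without PE+/- female replicate 1 and without PE+/- male replicate 3, and Pttg1 passed without PE+/- female replicate 2.

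**Figure D3:**
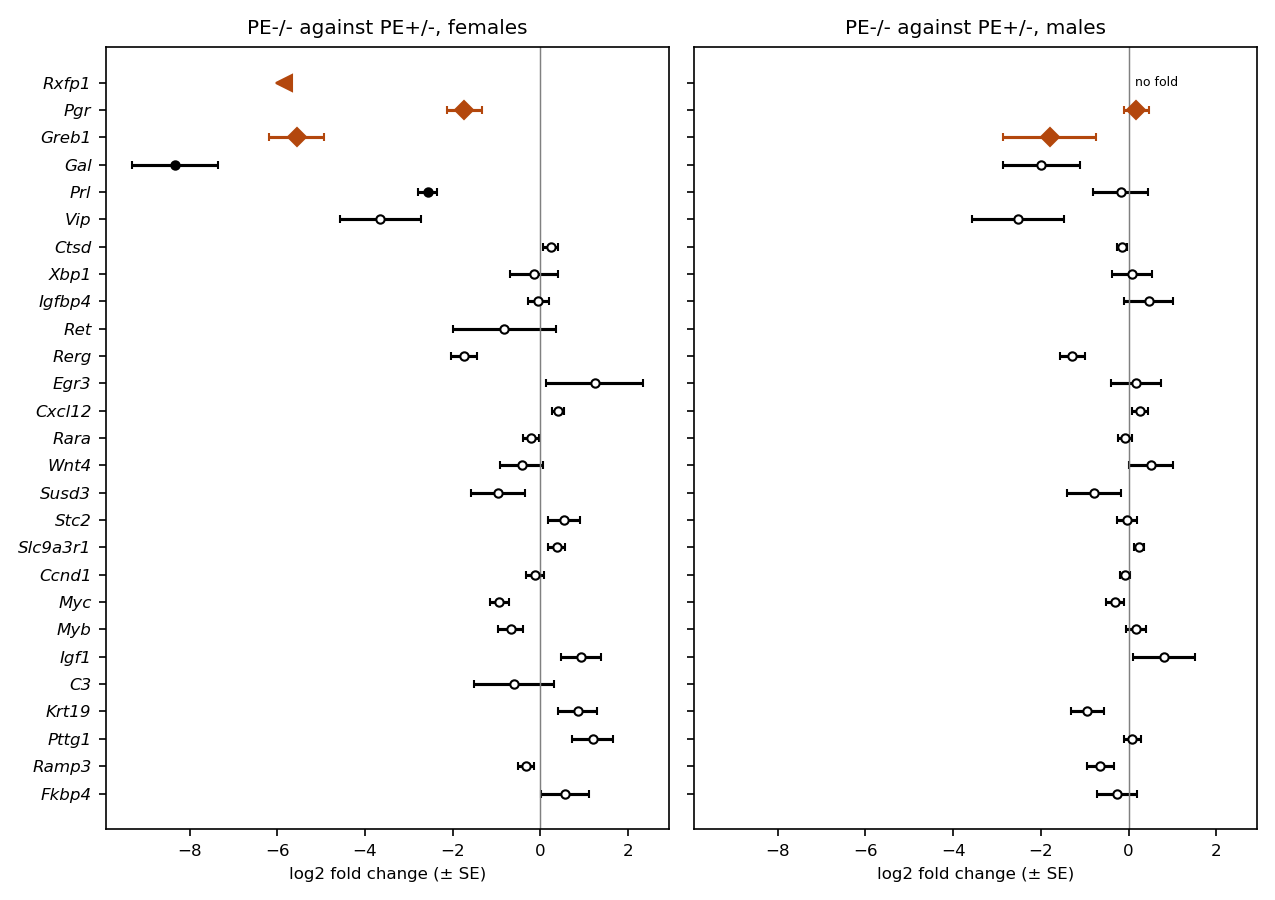
Log2 fold change of PE-/- against PE+/- in females and in males (± SE) for the 3 genes (diamonds) and the genes of the oestrogen-induced list that were tested in either sex (circles, filled where the edgeR adjusted p was under 0.05). The arrowhead for Rxfp1 in females is a bound (at least 57.7-fold lower), Rxfp1 has no fold in males, and only Gal and Prl in females are filled.

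The close relatives of the 3 genes were looked at next. Of 8 other genes of relaxin-family peptides and receptors, 3 were tested, and none passed in any of the 5 comparisons. The unadjusted p was under 0.05 for 2 of them in females, in the control sexes and in the interaction, and for 0 in males and in the PE-/- sexes. The shares of all genes were 16.1%, 13.5% and 10.1% in the first 3 of these comparisons, and 3 tested genes are too few to set against them. Rxfp2, the receptor most related to Rxfp1, differed by -2.20 on the log2 scale in females (SE 0.51, edgeR adjusted p = 0.0945) and by -0.58 in males (SE 0.45, edgeR adjusted p = 0.972). Rxfp2 was chosen here for its kinship with Rxfp1 after its values were seen. The other tested genes of the family went the other way in females. Insl6 differed by 1.02 (SE 0.38, edgeR adjusted p = 0.239) and Rln3 by 0.56 (SE 1.09, edgeR adjusted p = 0.872).

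For progesterone, 12 genes were listed: membrane progesterone receptors, chaperones of the nuclear receptor, and Nr3c1, which encodes the glucocorticoid receptor. Nr3c1 is among the 7 genes counted below for females, the 3 for the control sexes and the 5 for the interaction. None passed the threshold in any comparison. An unadjusted p under 0.05 was held by 7 of 12 in females (16.1% of all genes), 1 of 11 in males (6.14%), 3 of 11 in the control sexes (13.5%), 1 of 12 in the PE-/- sexes (3.37%) and 5 of 12 in the interaction (10.1%). Their median log2 fold change in females was 0.59, with 3 of 12 below 0, against a median of 0.0018 and 49.8% below 0 over all genes. Greb1l, the paralogue of Greb1, differed by -0.15 on the log2 scale in females (SE 0.97, edgeR adjusted p = 0.967) and by 0.33 in males (SE 0.54, edgeR adjusted p = 0.987). Greb1l and the other relatives named here fall outside the rule for named genes.

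Genes next to the 3 loci were compared too, a check added after the data were seen. Within 200 kb there were 14 annotated protein-coding neighbours. None of the 12 tested in females and of the 13 tested in males passed the threshold in edgeR. The neighbours closest to passing in females were 4930579G24Rik, 8791 bp from Rxfp1 (log2 fold change -1.08, SE 0.23, edgeR adjusted p = 0.0824), and, beside Pgr, Arhgap42 (-1.20, SE 0.28, edgeR adjusted p = 0.099) and Gm16485 (-1.71, SE 0.41, edgeR adjusted p = 0.1). Gm16485 lies 3180 bp from Pgr. It differed by 0.0037 in males (SE 0.48) and by 1.78 between the control sexes (SE 0.49, edgeR adjusted p = 0.159). For Pgr these values were 0.18 and 1.79. Whether the reads of Gm16485 are separate from those of Pgr was not tested.

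Rxfp1 and Greb1 overlap other annotated genes, and Pgr overlaps none. Gm26984 lies in an intron of Rxfp1 on the same strand. It was at 4.22, 4.77, 10.01 and 8.23 CPM in the PE+/- females, at 0.731 CPM in PE+/- male replicate 3 and at 0 in the other 10 libraries. Its reads cannot be told apart from unspliced Rxfp1. Gm48140, antisense to Greb1 and overlapping its exons, had counts in 1 library only, 1.58 CPM in PE+/- female replicate 3, the library highest in Greb1. The methods name featureCounts with default parameters, which ignore strand, but the deposited values may come from another step, so sense and antisense reads may not have been kept apart.

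The genes most like each of the 3 over all 15 libraries were ranked among 16044 genes. The measure was the root mean square difference of log2 CPM, each gene centred on its own mean. It was not scaled to the spread of a gene, so the ranks depend on the size of the differences. That the most alike genes share a pattern follows from the ranking and is no further result. For Rxfp1 they were Tgm6 (a difference of 0.95), Gm26984 (1.11), Gal (1.15), 4933406B17Rik (1.21) and Cckar (1.34). The spread of Rxfp1 itself was an SD of 3.69 on this scale. Tgm6, a transglutaminase, was at 3.51, 16.7, 17.0 and 19.8 CPM in the PE+/- females, at 0 in all PE-/- libraries and at no more than 0.792 CPM in the PE+/- males. Cckar, the cholecystokinin A receptor, had a mean of 24.5 ± 34.9 CPM in PE+/- females (SD, n = 4), since replicate 3 held 76.6 CPM. Greb1 came at rank 28 for Rxfp1 and Pgr at rank 149.

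For Pgr the most alike were Tmem88 (0.34), Tmem86a (0.37), Calb1 (0.38), A230065N10Rik (0.38) and Olfm3 (0.40), against an SD of 0.86 of Pgr itself. Calb1, which encodes the calcium-binding protein calbindin, was at 779 ± 198 CPM in PE+/- females and 282 ± 8.77 CPM in PE-/- females, while the males had 269 ± 74.1 CPM (PE+/-) and 311 ± 84.8 CPM (PE-/-; SD, n = 4, and n = 3 for PE-/- females). Olfm3 was at 85.7 ± 18.2 CPM in PE+/- females and had means between 24.5 and 30.5 CPM in the other groups. Since these genes were picked for their likeness to Pgr, the PE+/- females being set apart in them follows from that choice.

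For Greb1 they were Vip (1.10), Gm13446 (1.17), Gm10354 (1.19), Ecel1 (1.21) and Tgfbr3l (1.30), against an SD of 2.46. Vip, which encodes the vasoactive intestinal peptide and is also on the oestrogen-induced list, was at 4.51 ± 2.32 CPM in PE+/- females and 0.338 ± 0.311 CPM in PE-/- females, while the males had 1.29 ± 0.434 CPM (PE+/-) and 0.231 ± 0.28 CPM (PE-/-; SD, n = 4, and n = 3 for PE-/- females). Ecel1, an endothelin-converting enzyme-like protease, followed Greb1 in PE-/- male replicate 4, with 35.4 CPM against 3.28 to 5.24 CPM in the other PE-/- males. Tgfbr3l did not, with 3.30 CPM in that library and 2.63 to 3.90 CPM in the others. Pgr came at rank 183 and Rxfp1 at rank 4782 for Greb1. For Pgr, Greb1 came at rank 15417 and Rxfp1 at rank 15914. The 3 genes were thus not one another's nearest on this measure. Since it is not scaled, these ranks also reflect the unlike SD of Rxfp1 (3.69), Pgr (0.86) and Greb1 (2.46).

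**Figure D4:**
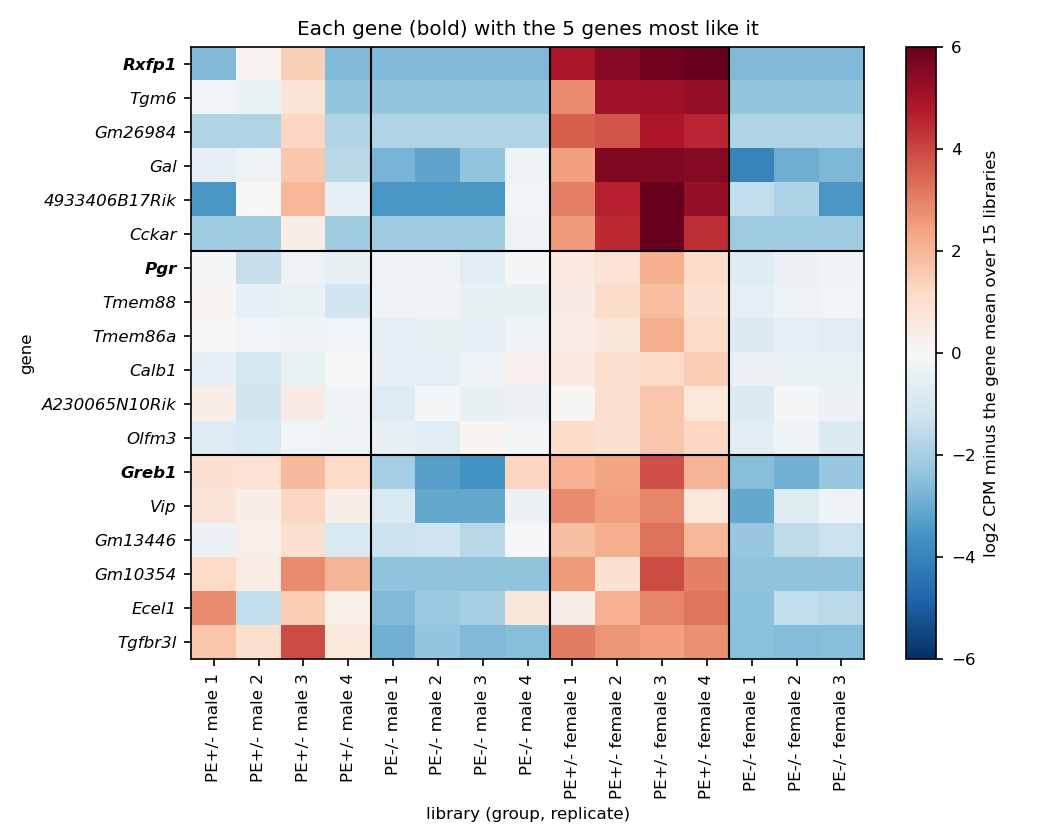
Log2 CPM (prior count 2) of each gene minus its mean over the 15 libraries, from low in blue to high in red (colours end at ±6), for Rxfp1, Pgr and Greb1 (bold) and the 5 genes most like each, with 1 column for each library. PE+/- females are mostly red in each block, Greb1 is also above its mean in all 4 PE+/- males, and PE-/- male replicate 4 is above the mean for Greb1 and Ecel1, the library with 11.2 CPM of Greb1.

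Markers of pituitary cell types were compared between the same groups. Of 6 gonadotrope markers 3 were lower in PE-/- mice of each sex (edgeR adjusted p under 0.05), namely Lhb, Gnrhr and the targeted Nr5a1. Fshb did not pass, but every PE-/- library lay below every PE+/- library of its sex. Its log2 fold change was -3.34 in females (edgeR adjusted p = 0.125) and -5.22 in males (edgeR adjusted p = 0.0506). Cga and Foxl2 overlapped between the genotypes in each sex. The summed gonadotrope level ran from 5859 to 8735 CPM in PE+/- females and from 2271 to 6944 CPM in PE-/- females. In the males it was 8981 to 16864 CPM for PE+/- and 1361 to 6815 CPM for PE-/-, so it was highest in PE+/- males. Most of this sum was Cga, with means of 6406 CPM in PE+/- females and 4966 CPM in PE-/- females. Of 4 lactotrope markers 1, Prl itself, was lower in PE-/- females and none in males. Drd2, Esr1 and Pou1f1 overlapped between the female groups. The summed lactotrope level, most of which was Prl, was 22740 to 36310 CPM in PE+/- females and 5299 to 6529 CPM in PE-/- females. In the males this level was 13306 to 32233 CPM for PE+/- and 5593 to 42194 CPM for PE-/-. Of 5 mesenchymal markers 1, Col1a2, was lower in PE-/- females and higher in control females than in control males. Pdgfra was higher in every PE-/- female than in every PE+/- female (edgeR adjusted p = 0.165). Pdgfrb, Col1a1 and Dcn overlapped between the female groups. The summed mesenchymal level was 285 to 307 CPM in PE+/- females and 162 to 219 CPM in PE-/- females. In the males it was 169 to 273 CPM for PE+/- and 167 to 236 CPM for PE-/-. Within this sum, Col1a2 had a mean of 165 CPM in PE+/- females and 42.8 CPM in PE-/- females. No gonadotrope, lactotrope or mesenchymal marker was at 0 in all libraries of a group. No marker passed the threshold in these comparisons for somatotropes, corticotropes, melanotropes, thyrotropes, stem or folliculostellate cells, pituicytes, endothelial, immune or erythroid cells. The part of cell numbers in the levels of Rxfp1, Pgr and Greb1 was not tested.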

How the data were processed

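RNA was taken from whole pituitary glands, and paired-end libraries were made with a low-input kit. According to the methods, the authors used cutadapt for trimming, STAR for alignment to mm10 and featureCounts for counting. The deposited values are estimated counts in whole numbers for each gene and are not normalized. Row names of assembled loci and the excess of the value 5 (1.52 times its neighbours) and 9 (1.16 times) point to counts derived from coverage, at about 4 per fragment, a step the methods do not state. The annotation release is not given in the sources used here. Sums of counts per library were 12982794 to 30238443, and 0 columns were without a sample. Any pair of libraries within a group differed by more than counting error (chi-square over degrees of freedom 17.9 to 57.8), and it is not stated whether each is 1 animal, so p-values measure the spread between these samples. Without molecular identifiers, the floors account for counting error alone.

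Comparisons used edgeR 4.0.16 in R 4.3.3: filterByExpr (minimum count 10, total 15), TMM factors, two-sided quasi-likelihood F tests fitted to the groups compared (all 15 libraries for the interaction), with Benjamini-Hochberg adjustment over all genes and a threshold of 0.05. Standard errors were taken as the size of the log2 fold change over the root of F. The genes, lists and tests were chosen with earlier results of these data known. Named were the 3 genes, Esr1, Prl, Gal, Nr5a1, list genes past the threshold in any comparison, and for each of the 3 genes the 5 most alike with a mean of at least 20 counts (log2 CPM, prior count 2). Alternatives were DESeq2 1.42.0, its size factors, scaling by library totals, omitting the low-count filter or setting it at 1 CPM, edgeR's likelihood ratio test, dividing counts by 4, the replicate block, rows of a symbol summed, all 15 libraries in 1 fit, leaving out each library and, chosen after seeing the data, adding overlapping genes. The edgeR fits between pairs of groups were tested on simulated data with the same spread for every gene, and the other steps were not. Isolated gonadotropes were not analysed here.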

Additional observations from a re-analysis of the deposited data

Results flagged for a closer look

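Among 21 genes and 59 groups of 4 libraries, 12 groups had a library whose gap to the nearest other exceeded Dixon's 95% critical value for 4 samples, a limit that chance passes in about 1 in 20 groups. Most of the 21 genes were chosen on these values or for a profile like that of Rxfp1, Pgr or Greb1. A library that stands apart in 1 of them is thus likely to recur in others. The 12 groups are not independent, and their count cannot be set against 1 in 20. The group of 3 PE-/- females was too small to look at.

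PE-/- male replicate 4 was the library in 5 of them. It held 11.2 CPM of Greb1 (others 0.281 to 1.01), 12.9 CPM of Gal (others 1.68 to 3.00), 35.4 CPM of Ecel1 (others 3.28 to 5.24), 0.91 CPM of 4933406B17Rik and 0.284 CPM of Cckar (16 and 5 counts, others 0 for both).

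PE+/- male replicate 3 was the library in 4 of them, with 17.5 CPM of Greb1 (others 8.34 to 9.88), 297 CPM of Tgfbr3l (others 30.2 to 62.9), 0.731 CPM of Gm26984 and 0.488 CPM of Cckar (12 and 8 counts, others 0 for both). Where the other 3 libraries are at 0, any count above 0 passes the limit, so these 4 cases say nothing further, and 3 of them are at or under the floor of 12 counts. The gap for Greb1 was 0.832 of the range, just past the limit.

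PE+/- female replicate 3 stood apart with 65.7 CPM of Greb1 (others 18.8 to 23.3) and 76.6 CPM of Cckar (others up to 9.58). PE+/- female replicate 1 was low in Gal, with 87.3 CPM against 730.4 to 758.4 in the others.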

How the results depend on the processing

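Of the 3 genes, Rxfp1 kept its bound in females between 49.8 and 70.3 as single libraries were left out, and every log2 fold change of Pgr and Greb1 that sets PE+/- females against another group kept its sign under each alternative run. In leave-one-out fits Greb1 ran from -5.74 to -4.93 in females, -4.32 to -1.42 in males, -2.61 to 0.29 between PE-/- females and males and -4.13 to -1.23 in the interaction, and Rxfp1 from 5.33 to 6.95 between control females and males.

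The replicate numbers did not pair the samples: same-numbered libraries had correlations of -0.08 to 0.13 between their deviations from the group means. With the replicate block, Greb1 had -3.29 in males, 0.44 between PE-/- females and males and -2.61 in the interaction. In females 0 genes of the oestrogen-induced list then passed (Gal -7.87, edgeR adjusted p = 0.204, Prl -2.48, edgeR adjusted p = 0.207).

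Without the block the count of that list in females was 2, and it was 5 with DESeq2, 4 with the likelihood ratio test, 4 in the fit on all 15 libraries, 3 with the 1 CPM filter, 3 with counts divided by 4 and 1 to 3 in leave-one-out fits. In males it was 0, and 1 with DESeq2 or the likelihood ratio test. Between control females and males it was 0, and 2 with DESeq2, 3 with the likelihood ratio test, 2 in the fit on all 15 libraries and 0 to 2 in leave-one-out fits. Between PE-/- females and males it was 0, and 1 with DESeq2 or the likelihood ratio test. In the interaction it was 0, and 1 with the likelihood ratio test and 0 to 1 in leave-one-out fits. With DESeq2, 4.53% of all genes were called lower in females, against 0.697% in the quasi-likelihood test. The cause of these differences was not tested. Counts near the floor of 12 limit what can be said of Rxfp1 outside PE+/- females and of Greb1 in PE-/- mice.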
